A study of Mus musculus with 58 samples.

Results

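Expression of 10 genes of the growth hormone and insulin-like growth factor axis, Igf1, Igfals, Igfbp1, Igfbp2, Igfbp3, Igfbp4, Ghr, Lifr, Stat5b and Socs2, was examined in mouse liver tumors and normal liver. The genes were chosen by name, all 10 were found on the array, and no filter on low values removed any of them, out of 22180 genes tested. Each was read from a transcript cluster, a group of probes for 1 gene, that carries that gene's symbol alone, and for Socs2, which has 2 such clusters, from the brighter one. The series holds 29 liver tumors and 29 samples of normal liver, by their titles from 39 adult mice of a mixed background of 129/Sv, C57BL/6 and FVB/NJ. All mice, those that gave normal liver included, had been given adeno-associated virus (AAV), a gene transfer vector, as newborns, and the series asks whether insertion of the vector contributed to hepatocellular carcinoma. The labels name neither the vector's cargo and dose nor an age beyond adult, and mice without AAV were not analysed here. Titles marked 5 tumors as +/-, 5 as -/- and left 19 unmarked, against 5, 4 and 20 normal livers, without naming the gene. 1 title of a normal liver also bears the letters GFP. Tumors were labelled female in 11 cases, male in 17 and had no gender label in 1, against 9 female and 20 male normal livers. By their titles, 18 animals gave 1 tumor and 1 normal liver, 1 animal gave 2 tumors, and 11 tumors and 11 normal livers belonged to no such pair. A few similar titles were kept apart as different animals, so some arrays without a pair may share an animal with another array.

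Growth hormone from the pituitary binds its receptor Ghr on hepatocytes, and the receptor's kinase Jak2 activates the transcription factor Stat5b. Stat5b switches on Igf1, the growth factor that the liver secretes into blood, and Igfals, the acid-labile subunit that holds Igf1 in a circulating ternary complex with Igfbp3 or Igfbp5. It also switches on Socs2 and Cish, which dampen the same receptor. The other binding proteins of the family carry Igf1 in smaller complexes, and in liver Igfbp1 is raised by fasting and stress and held down by insulin. Lifr, the receptor for leukaemia inhibitory factor, signals through Il6st and Stat3, and its soluble form in mouse blood comes largely from the liver.

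Promoter windows of 250 bases before to 50 bases after annotated starts were taken from RefSeq (build GRCm38.p6). Socs2 had none and could not be searched, and the other 9 of the 10 genes had 15 windows. They were searched for TTCNNNGAA, a motif of the type that Stat5 proteins bind and that reads the same on both strands. It was found in 2 windows of 1 gene, Igfals, while 8.30% of all 32851 windows and 9.55% of all 27025 genes in the table held it. The 2 Igfals windows with a match are shown because this gene fell in tumors and followed Ghr across samples. That of Cish is shown because it is a Stat5 target of the same axis that also fell. Windows without a match, among them a further one of Igfals and those of Igfbp2 and Lifr, which also fell, are not shown. Capitals mark the motif, which lies 236 bases before the start in the more upstream Igfals window and 58 bases before it in the other. In Cish a copy lies at the annotated start and another 11 bases after it.
Igfals chr17:24877594-24877893, plus strand: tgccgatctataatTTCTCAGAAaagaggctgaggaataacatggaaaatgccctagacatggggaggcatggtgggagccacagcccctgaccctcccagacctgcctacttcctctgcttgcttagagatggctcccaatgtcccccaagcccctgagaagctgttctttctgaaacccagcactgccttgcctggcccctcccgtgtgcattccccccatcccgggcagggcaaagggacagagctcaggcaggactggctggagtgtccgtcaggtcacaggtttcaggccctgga
Igfals chr17:24877981-24878280, plus strand: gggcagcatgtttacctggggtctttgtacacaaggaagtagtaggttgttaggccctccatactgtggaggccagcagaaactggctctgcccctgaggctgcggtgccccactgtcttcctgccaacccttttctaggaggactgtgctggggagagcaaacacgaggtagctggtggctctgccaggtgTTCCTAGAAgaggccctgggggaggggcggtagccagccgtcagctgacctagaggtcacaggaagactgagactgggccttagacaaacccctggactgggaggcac
Cish chr9:107296409-107296708, plus strand: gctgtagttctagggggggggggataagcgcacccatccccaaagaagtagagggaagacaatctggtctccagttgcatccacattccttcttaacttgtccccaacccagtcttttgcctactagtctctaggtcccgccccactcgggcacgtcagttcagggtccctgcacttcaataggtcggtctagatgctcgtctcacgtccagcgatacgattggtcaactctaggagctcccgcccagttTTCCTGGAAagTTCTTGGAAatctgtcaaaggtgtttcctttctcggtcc
A match describes the letters in these windows only, and distant elements such as those of Igf1 lie outside them.

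Values are log2 intensities per cluster as the authors deposited them, with array medians between 6.72 and 7.15, and a difference of 1 is a doubling. No detection limit is stated for them, and all 10 genes averaged above the median gene of normal liver (7.33). 1 array stood apart. Tumor 9 had a mean of 7.62 over 13 hepatocyte marker genes, among them Alb at 10.47, Ttr at 8.89 and Apob at 6.85, whereas the other tumors began at 12.20 and normal livers ran from 12.20 to 12.98. Its means over the lists of T and NK cells (9.84) and of B and plasma cells (12.30) were the highest of all tumors, and its mean correlation with the other arrays, 0.87, was the lowest. The label of liver tumor was therefore not borne out by hepatocyte markers in tumor 9, and results are given with and without it. A further 7 arrays of 4 animals, tumors 3, 14, 15 and 28 and normal livers 3, 14 and 15, went against their gender label in sex-linked genes. Changes are log2 differences, tumor minus normal liver, from limma with the animal as a random block, with Benjamini-Hochberg adjustment over all 22180 genes and a threshold of 0.05. In a bulk sample fewer cells of a type and less RNA per cell cannot be told apart.

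In tumors the binding protein gene Igfbp3 rose, while Igfbp2, Lifr, Socs2 and Igfals fell. Igf1 itself, the growth hormone receptor gene Ghr, Stat5b, Igfbp1 and Igfbp4 did not pass the test over all 29 tumors. Of the 10 genes 5 were called, 1 higher and 4 lower, where 32.1% of all genes were called, 17.9% higher and 14.3% lower. Only Igfbp2 also reached a log2 change of 1, as 1.98% of all genes did. The median change over the 10 genes was -0.24, against -0.02 over all genes. Without tumor 9, Igfbp1 was called as well, which gave 6 of 10 where 33% of all genes were called, 18.4% higher and 14.7% lower.

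**Figure D1:**
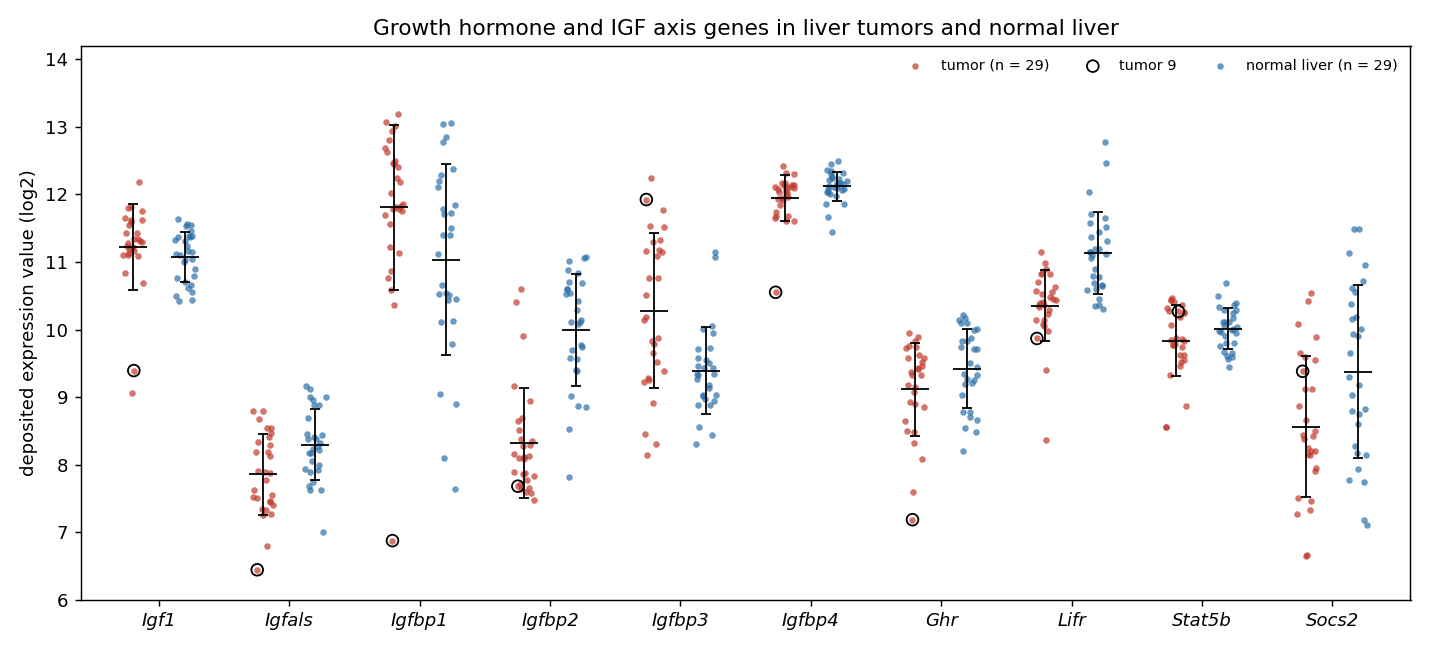
Deposited log2 value (vertical axis) of each of the 10 genes in 29 tumors (red, left of each pair) and 29 normal livers (blue, right), 1 point per array, with the mean and SD as bars and tumor 9 circled. Igfbp2 and Lifr lay lower in most tumors than in normal livers and Igfbp3 was spread upward in tumors, while tumor 9 was the lowest tumor for Igfals, Igfbp1, Igfbp4 and Ghr.

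Igf1, the circulating growth factor, ran from 9.05 through a median of 11.30 to 12.18 in tumors, against 10.42, 11.12 and 11.64 in normal livers. The ranges overlapped, with 2 tumors (16 and 9) below every normal liver and 5 above every normal liver. Its mean was 11.22 ± 0.64 in tumors and 11.07 ± 0.37 in normal livers (SD, n = 29 each), a change of 0.14 ± 0.13 (SE, 95% interval -0.12 to 0.40, adjusted p = 0.415). Without tumor 9 the change was 0.22 (adjusted p = 0.142), and with limma's array weights it was 0.31 with an adjusted p of 0.0140. Within animals Igf1 was higher in the tumor in 15 of 18 pairs, and the lowest differences, -2.14 and -1.99, belonged to tumors 9 and 16. Tumor 16, the lowest for Igf1, had a hepatocyte marker mean of 12.52, inside the range of normal livers.

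Igfals, which encodes the subunit that keeps Igf1 in the large circulating complex, fell by 0.43 on the log2 scale (SE 0.14, adjusted p = 0.0101), a level 1.35-fold lower in tumors. It ran from 6.44 through a median of 7.88 to 8.80 in tumors, against 7.01, 8.28 and 9.16 in normal livers. Most tumors lay inside the range of normal livers, and only tumors 9 and 23 were below it. The change was -0.38 without tumor 9 (adjusted p = 0.0182) and -0.47 without the 7 arrays that go against their gender label (adjusted p = 0.0142). Igfals was lower in the tumor in 13 of 18 pairs, and the fit of the pairs alone gave -0.39 with an adjusted p of 0.0557, or -0.27 with 0.0473 in the 17 pairs without tumor 9.

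Among the binding proteins, Igfbp2, an abundant carrier that the liver makes under low insulin and growth hormone, changed most. It ran from 7.48 through a median of 8.11 to 10.61 in tumors, against 7.82, 10.11 and 11.07 in normal livers. Of the 29 tumors 8 lay below every normal liver and none above, a count of at least 8 that 3.71% of all genes reached. The SD was 0.81 in tumors and 0.83 in normal livers (n = 29 each), and the log2 change was -1.69 ± 0.20 (SE, adjusted p = 1.27e-09), a 3.24-fold lower level. Tumors 1, 25 and 24 stood highest, at 10.61, 10.40 and 9.90. The change was -1.66 without tumor 9 (adjusted p = 2.14e-09) and -1.61 without the arrays that go against their gender label (adjusted p = 2.89e-07).

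Igfbp3, the main carrier of Igf1 in blood, moved the other way. In tumors it ran from 8.15 through a median of 10.19 to 12.25, against 8.31, 9.34 and 11.15 in normal livers. The tumors were spread widely, with 10 above every normal liver (4.38% of all genes had at least 10) and 1, tumor 23, below. The log2 change of Igfbp3 was 0.92 ± 0.23 (SE, adjusted p = 0.00121), a 1.89-fold higher level. Without tumor 9, in which it stood at 11.93, the change was 0.85 (adjusted p = 0.00214), and without the arrays that go against their gender label it was 0.86 (adjusted p = 0.00707). In rat liver Igfbp3 is made mainly by Kupffer and endothelial cells rather than hepatocytes. The Kupffer cell markers Clec4f and Vsig4 changed by -2.06 and -2.37 and the sinusoidal endothelial markers Stab2 and Clec4g by -1.01 and -2.03, all called lower. Over the whole lists, 5 of 10 Kupffer cell markers fell and 1 rose, and 6 of 9 sinusoidal endothelial markers fell and 0 rose. Of 6 markers of other vessels 3 rose and 0 fell. Over all genes 17.9% were higher and 14.3% lower. The part of these cells in the Igfbp3 values was not tested.

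Igfbp1, the carrier raised by fasting and stress, ran from 6.87 through a median of 11.86 to 13.19 in tumors, against 7.64, 11.40 and 13.06 in normal livers. The groups overlapped almost fully, and tumor 9 was the only tumor below every normal liver. Over all arrays the change was 0.73 (SE 0.32, 95% interval 0.10 to 1.36) with an adjusted p of 0.0666. Without tumor 9 it was 0.92 (SE 0.28, adjusted p = 0.00773), a 1.89-fold higher level, and the remaining 28 tumors lay between 10.36 and 13.19. Leaving out normal liver 4, 15, 16, 26 or 27 instead gave changes of 0.79 to 0.80 with adjusted p-values of 0.0396 to 0.0482, while leaving out the 7 arrays that go against their gender label gave 0.70 with 0.131.

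Igfbp4, a carrier that the protease Pappa cleaves, varied least of all 10 genes in normal livers. It ran from 10.55 through a median of 12.04 to 12.42 in tumors, against 11.44, 12.14 and 12.49 in normal livers, and tumor 9 alone lay below the normal range. The change was -0.18 (SE 0.07, 95% interval -0.33 to -0.03, adjusted p = 0.0582), and -0.13 without tumor 9 (adjusted p = 0.0835). It crossed the threshold, with adjusted p-values of 0.0242 to 0.0490, when tumor 17, 22 or 25 or normal liver 7, 16 or 21 was left out.

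Of the receptors, Lifr fell and Ghr did not pass the test. Lifr ran from 8.36 through a median of 10.40 to 11.15 in tumors, against 10.30, 11.13 and 12.77 in normal livers. Tumors lay low as a group, with 10 below every normal liver and none above, a count that 2.06% of all genes reached. The mean was 10.35 ± 0.53 in tumors and 11.14 ± 0.61 in normal livers (SD, n = 29 each), a log2 change of -0.79 ± 0.14 (SE, adjusted p = 8.42e-06) or a 1.73-fold lower level. It was -0.77 without tumor 9 (adjusted p = 1.36e-05) and -0.76 without the arrays that go against their gender label (adjusted p = 0.000214).

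Ghr, the growth hormone receptor, ran from 7.18 through a median of 9.33 to 9.94 in tumors, against 8.21, 9.44 and 10.22 in normal livers. The groups overlapped over nearly their whole range, and 3 tumors (9, 23 and 16) lay below every normal liver. The change was -0.30 (SE 0.16, 95% interval -0.61 to 0.01, adjusted p = 0.135), and -0.22 without tumor 9 (adjusted p = 0.233). Quantile normalization gave -0.39 with an adjusted p of 0.0381.

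Downstream of Ghr, the feedback inhibitor Socs2 fell. It ran from 6.65 through a median of 8.42 to 10.54 in tumors, against 7.10, 9.29 and 11.49 in normal livers. Tumors spread over 3.89 and normal livers over 4.39 log2 units, the groups overlapped, and only 2 tumors (26 and 3) lay below every normal liver. The log2 change of Socs2 was -0.84 ± 0.28 (SE, adjusted p = 0.0167), a 1.78-fold lower level. All Socs2 values here rest on the brighter of its 2 clusters (mean 8.97 over all arrays). The dimmer cluster (mean 7.47) was not tested on its own. The change was -0.86 without tumor 9 (adjusted p = 0.0150), and -0.77 with an adjusted p of 0.0540, which ends the call, without the 7 arrays that go against their gender label.

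Stat5b, the transcription factor that growth hormone activates, ran from 8.55 through a median of 9.84 to 10.47 in tumors, against 9.44, 10.01 and 10.69 in normal livers. A tail of 4 tumors, with 20, 23 and 3 the lowest, lay below every normal liver. The change was -0.18 (SE 0.11, 95% interval -0.39 to 0.03, adjusted p = 0.2) and -0.19 without tumor 9 (adjusted p = 0.166). Quantile normalization gave -0.27 with an adjusted p of 0.0132. An array reads the amount of Stat5b RNA and not the phosphorylation of its protein.

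Within the 18 animals that gave a tumor and a normal liver, the same genes could be read against the animal's own liver. Igfbp2 was lower in the tumor in 17 of 18 pairs and Lifr in 16, while Igfbp3 and Igf1 were higher in 15. These 4 genes moved one way in at least 15 of 18 pairs, as 17.5% of all genes did. Socs2 was lower in 14 pairs, with a median difference of -1.55, and the 4 pairs in which it was higher reached 1.12. In the fit of the pairs alone, 4 of 10 genes were called where 20.8% of all genes were: Igfbp2 at -1.87 (adjusted p = 1.21e-05), Lifr at -0.85 (0.000374), Socs2 at -1.13 (0.00288) and Igfbp3 at 1.18 (0.00794). Igfbp1 stood at 0.36 (adjusted p = 0.332) in the 18 pairs. In the 17 pairs without tumor 9, Igfbp1 at 0.57 (adjusted p = 0.0170) and Igfals were called as well, where 23.5% of all genes were.

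The 11 tumors and 11 normal livers without a pair gave the same sign for all 10 genes, though only Igfbp2 was called there (-1.35, adjusted p = 0.0268), where 8.89% of all genes were. Socs2 stood at -0.27 in them (adjusted p = 0.810) and Igfbp3 at 0.40 (adjusted p = 0.524). For Lifr the value was -0.67 (adjusted p = 0.0777) and for Igfbp1 1.45 (adjusted p = 0.0854). Whether the changes differed between paired and unpaired animals was not tested.

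**Figure D2:**
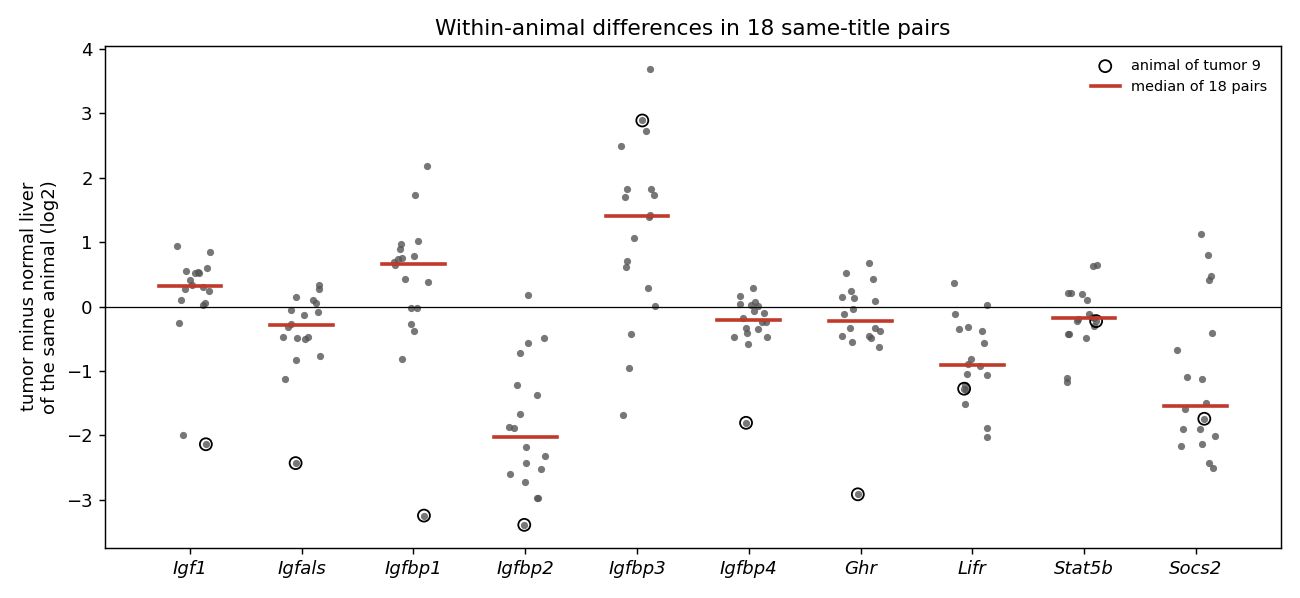
Tumor minus normal liver of the same animal, in log2 units (vertical axis), for each of the 10 genes, 1 point per animal, with the median of 18 pairs as a red line and the animal of tumor 9 circled. Igfbp2 lay below 0 in 17 of 18 animals and Igfbp3 above 0 in 15, and the animal of tumor 9 gave the lowest difference for Igf1, Igfals, Igfbp1, Igfbp2, Igfbp4 and Ghr.

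The SD over tumors exceeded that over normal livers for 6 of the 10 genes, or for 5 without tumor 9. That share is no larger than over all genes, of which 67.4% had the larger SD in tumors. The SD was 1.15 in tumors and 0.64 in normal livers for Igfbp3, and 0.53 in tumors and 0.30 in normal livers for Stat5b. For Igfbp1 it was smaller in tumors, at 1.22 over all 29 and 0.78 without tumor 9, against 1.42 in normal livers. Tumor 23 combined the lowest Lifr (8.36) and Igfbp3 (8.15) with the highest Igfbp1 (13.19) and Socs2 (10.54), at a hepatocyte marker mean of 12.20. That mean lay at the lower edge of the normal range, and tumor 23 also had the lowest tumor means over the sinusoidal endothelial (7.87), stellate cell (7.69) and proliferation (7.11) lists. Their part in its values was not tested.

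Across tumors Ghr and Igfals were closely related, Stat5b was related to both when all animals were used, and Igfbp1 ran opposite to Ghr and Igfals outside tumor 9. Relations were computed over 28 animals, with the 2 tumors of 1 animal averaged, or 27 animals without tumor 9. Pearson's r and Spearman's rho have two-sided permutation p-values adjusted over the 45 pairs of genes. Of the 45 pairs, 11 were positively and 0 negatively correlated by Pearson's r in all tumors (7 by both coefficients), and 9 positively and 2 negatively without tumor 9. At an unadjusted permutation p of Pearson's r under 0.05 over all tumors, 12 were positive and 0 negative. By rho over all tumors, Igfbp1 was negatively related to Igfals (-0.50), Ghr (-0.51) and Stat5b (-0.48). The adjusted permutation p-values for these rho were 0.0357, 0.0357 and 0.0437. In normal livers 8 were positive and 3 negative by Pearson's r after adjustment, 9 of them by both coefficients. Animals are the points, and no array batch is given in the sources used here, so none could be examined.

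Ghr and Igfals had r = 0.84 and rho = 0.80 over all tumors (adjusted permutation p = 0.00045 for each). Without tumor 9 r was 0.79 and rho 0.78, and it was 0.73 after the 2 tumors farthest from the median were left out too. In normal livers the same genes had r = 0.74 and rho = 0.72. Igf1 was related by r over all tumors to Igfbp4 (0.68), Ghr (0.62) and Igfals (0.49, adjusted permutation p = 0.0105, 0.0105 and 0.0298). Without tumor 9 these were 0.47, 0.46 and 0.32, and only that with Igfbp4 was called (adjusted permutation p = 0.0374). Without the 2 farthest tumors they were 0.33, 0.29 and 0.25. Igfbp4 and Ghr had r = 0.72 and rho = 0.63 over all tumors, 0.57 and 0.58 without tumor 9, and 0.58 and 0.54 in normal livers.

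Ghr and Stat5b had r = 0.58 and rho = 0.68 in all tumors, and r = 0.80 and rho = 0.80 without tumor 9 (adjusted permutation p = 0.000225 for each). Tumor 9 had the lowest Ghr of the tumors at 7.18 but Stat5b at 10.27, above the tumor median. In normal livers the 2 genes had r = 0.35 and rho = 0.42, neither of them called, and the difference between the tissues was not tested. Igfals and Stat5b had r = 0.69 without tumor 9 (rho = 0.69, adjusted permutation p = 0.00105 for r), and Igfbp4 and Stat5b r = 0.64 (rho = 0.71, adjusted permutation p = 0.00193 for r). Over all tumors Igfals and Stat5b had r = 0.52 (rho = 0.58, adjusted permutation p = 0.0178 for r). Igfbp4 and Stat5b had r = 0.26 there (rho = 0.59, adjusted permutation p = 0.344 for r), so that r was called only without tumor 9. In normal livers Igfbp4 and Stat5b had r = 0.28 and rho = 0.33, neither of them called. The relations of Stat5b with Ghr and Igfals were weaker in other settings. These settings include tumor 9 but leave out tumor 23, which has neither a pair nor a gender label. Tumor 23 was the second lowest tumor for Ghr (7.59), Igfals (6.80) and Stat5b (8.56). The set of all tumors includes both, and the reason for the weaker relations was not tested. Ghr and Stat5b had r = 0.33 over the 18 tumors of pairs (adjusted permutation p = 0.370), 0.23 over the within-animal differences (0.479) and 0.47 after centring within the gender label (0.0684). For Igfals and Stat5b these were 0.36, 0.21 and 0.45 (adjusted permutation p = 0.370, 0.490 and 0.0718), and none of the 6 was called.

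Igfals and Igfbp1 were inversely related in normal livers and, outside tumor 9, in tumors. Without tumor 9 they had r = -0.66 and rho = -0.68 (adjusted permutation p = 0.00193 for r and 0.00262 for rho, 27 animals), and r = -0.60 after 2 more tumors were left out. With tumor 9, low for both genes, r was -0.01 and rho -0.50 (adjusted permutation p = 0.981 for r and 0.0357 for rho). In normal livers the relation had r = -0.76 and rho = -0.73 (adjusted permutation p = 0.00045 for r and 0.000675 for rho). Ghr and Igfbp1 followed the same pattern, with r = -0.62 and rho = -0.69 in tumors without tumor 9, against r = -0.60 and rho = -0.57 in normal livers.

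**Figure D3:**
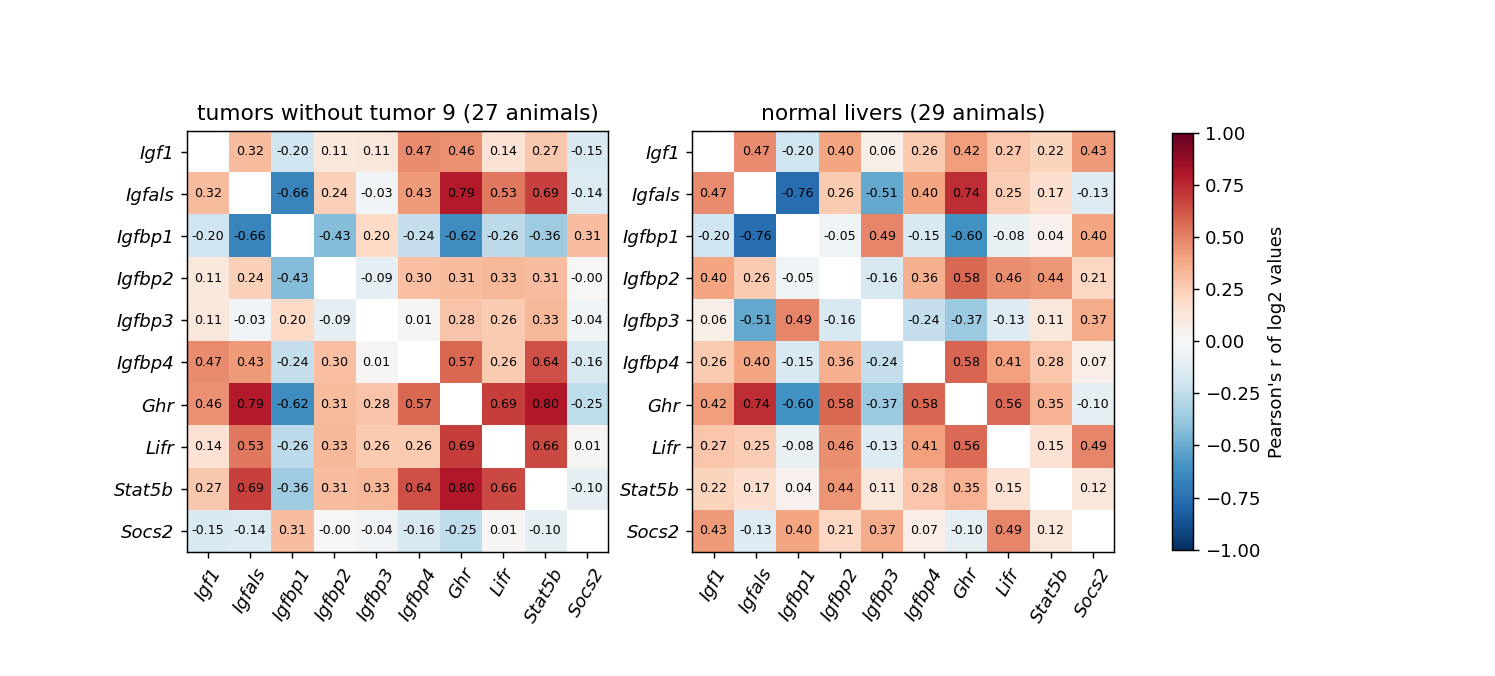
Pearson's r of the log2 values for every pair of the 10 genes, across 27 tumor animals without tumor 9 (left) and 29 normal livers (right), on a colour scale from -1 to 1. Ghr, Igfals and Stat5b were positively related in tumors (0.69 to 0.80), and Igfbp1 was negatively related to Igfals and Ghr in both tissues.

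**Figure D4:**
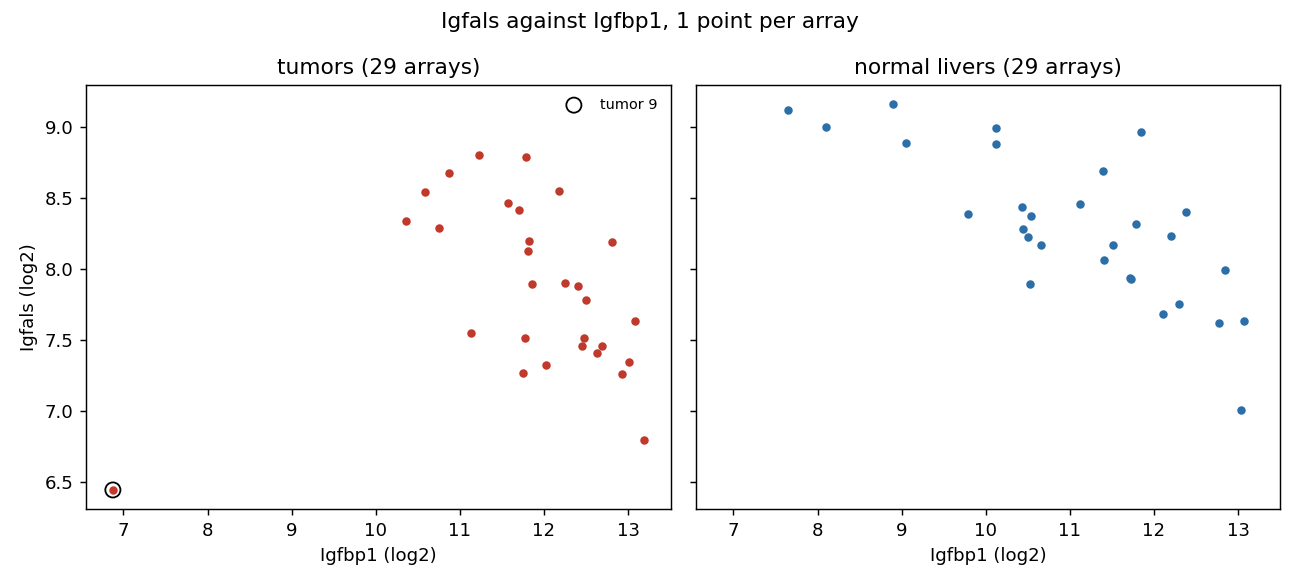
Igfals (vertical axis, log2) against Igfbp1 (horizontal axis, log2), 1 point per array, for 29 tumors (left) and 29 normal livers (right), with tumor 9 circled. Igfals declined as Igfbp1 rose in both panels, and tumor 9, at 6.87 for Igfbp1 and 6.44 for Igfals, lay away from the other tumors.

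Igfbp2, Igfbp3 and Socs2, called in the comparison of tissues, took part in none of the called relations of tumors. Their largest r by size without tumor 9 was -0.43, between Igfbp2 and Igfbp1 (rho = -0.34, adjusted permutation p = 0.0822 for r). In normal livers Igfbp2 was related to Ghr (r = 0.58, rho = 0.58) and Lifr (r = 0.46, rho = 0.47), and Socs2 to Lifr by r (r = 0.49, rho = 0.44) and to Igfbp1 by rho (r = 0.40, rho = 0.49). Igfbp3 was there related to Igfbp1 (r = 0.49, rho = 0.50) and, by r, to Igfals (r = -0.51, rho = -0.32). Ghr and Lifr were related in tumors (r = 0.67, rho = 0.57, and 0.69 and 0.52 without tumor 9) and in normal livers (r = 0.56, rho = 0.63). Their r was 0.57 over the 18 tumors of pairs and 0.50 over the within-animal differences. Neither was called there (adjusted permutation p = 0.105 and 0.107). The relation of Lifr and Stat5b, r = 0.61 (rho = 0.31) in tumors, was 0.21 after the 2 farthest tumors were left out, so it rests on those tumors.

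The level of hepatocyte markers moved with several of these genes. Over 20 relations with the hepatocyte and proliferation lists, and without tumor 9, the hepatocyte mean had r = 0.71 with Ghr, 0.70 with Igfals, 0.67 with Stat5b, 0.63 with Lifr, 0.46 with Igfbp4 and -0.51 with Igfbp1 (rho of 0.70, 0.72, 0.59, 0.50, 0.43 and -0.47). Each of these 6 had an adjusted permutation p between 0.0004 and 0.0364 for r. With tumor 9 included, r was 0.63 for Ghr, 0.56 for Igfals and 0.83 for Igfbp4, still called. For Stat5b it was -0.05 (rho = 0.49, adjusted permutation p = 0.816 for r), for Lifr 0.28 (rho = 0.54, adjusted permutation p = 0.207 for r) and for Igfbp1 0.72 (rho = -0.32, adjusted permutation p = 0.112 for r), so the calls of r for these 3 genes depend on leaving out that array. The proliferation mean had r = 0.54 with Stat5b over all tumors (rho = 0.57, adjusted permutation p = 0.0139 for r), the only r with that list called there, while by rho Igf1 (0.48) and Igfbp1 (-0.49) were called as well. Without tumor 9, r was called for Igfals (0.54), Stat5b (0.52), Ghr (0.50) and Igf1 (0.44), with rho of 0.53, 0.54, 0.50 and 0.61 and adjusted permutation p-values for r of 0.0164, 0.0169, 0.0202 and 0.0368. The part of these lists in the relations between the genes was not tested.

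An animal's normal liver and its tumor resembled each other in some of these genes. Igfbp1 had r = 0.61 and rho = 0.73 between the tissues of 18 animals (adjusted permutation p = 0.0557 for r and 0.0101 for rho, over 10 relations), against a median r of 0.15 over all genes. For Igfals and Ghr r was 0.36 and 0.19 over the 18 animals (rho of 0.48 and 0.43), and neither was called (adjusted permutation p = 0.282 and 0.747 for r). In the 17 animals without tumor 9, r was 0.73 for Igfbp1, 0.68 for Igfals and 0.68 for Ghr (rho of 0.69, 0.65 and 0.67, adjusted permutation p = 0.0088, 0.0089 and 0.0089 for r), so the calls for Igfals and Ghr were made only with that tumor left out. Igfbp2 and Igfbp3, which differed most between the tissues among the binding proteins, had r of 0.13 and -0.01 there. This relation was examined after the data had been seen.

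The genes most like Igf1 across the 28 tumor animals, among 11089 genes of above-median SD, were Sult1a1 (r = 0.87), Gstk1 (0.87), Cyp17a1 (0.84), Iyd (0.84) and Hagh (0.83). Without tumor 9 these were 0.84, 0.80, 0.75, 0.75 and 0.74. In the 29 normal livers r ran from -0.03 for Sult1a1 to 0.59 for Gstk1. Sult1a1 encodes a sulfotransferase and Cyp17a1 a steroid hydroxylase, and Cyp17a1 rose in tumors (log2 change 1.62, adjusted p = 0.000401).

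For Igfbp1 the genes were Krt18 (r = 0.89), Tmem82 (0.88), Oplah (0.87), Tnfrsf12a (0.87) and Cxadr (0.87). Without tumor 9 the value for Tnfrsf12a, a receptor of the TNF family, was 0.86, whereas the other 4 ranged from 0.64 for Cxadr to 0.69 for Krt18, a hepatocyte keratin. All 5 rose in tumors, Tnfrsf12a by 0.90 (adjusted p = 5.02e-05) and Krt18 by 0.70 (adjusted p = 0.00345). Likeness is a description over tumors that share array and processing.

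The rest of the axis was read from lists of 55 partner genes, of which 52 were measured. Of these, 15 rose, 11 fell and 26 were not called, where 17.9% of all genes were higher and 14.3% lower, and their median change was 0.09, against -0.02 over all genes. Without tumor 9, 16 rose and 9 fell, where 18.4% of all genes were higher and 14.7% lower. In the 18 pairs alone 12 were higher and 8 lower, where 20.8% of all genes were called in either direction. In the animals without a pair 5 were higher and 2 lower, where 8.89% of all genes were called. The calls of Gh, Hnf4a, Igfbpl1, Shc1, Sirpa, Socs5 and Stat5a were lost in the fit of the pairs (adjusted p of 0.0922 for Sirpa to 0.315 for Shc1). Those of Clcf1, Gh, Hnf4a, Igfbpl1, Shc1, Sirpa and Stat5a were lost without the 7 arrays that go against their gender label (adjusted p of 0.0527 for Clcf1 to 0.173 for Stat5a). In the list of proteases that release insulin-like growth factors and their inhibitors, 4 of 5 genes rose, where 17.9% of all genes were higher. Htra1, a secreted protease that cleaves Igfbp5, ran from 7.41 through 10.05 to 11.40 in tumors, against 6.95, 7.30 and 9.18 in normal livers, and 19 tumors lay above every normal liver. Its change was 2.32 (SE 0.23, adjusted p = 1.61e-11) and 2.31 without tumor 9. Pappa2, a protease of Igfbp3 and Igfbp5, ran from 5.58 through 8.11 to 10.35 in tumors, against 5.05, 5.75 and 7.67 in normal livers. It changed by 1.91 (adjusted p = 1.56e-07), with 15 tumors above every normal liver and low values in others. Pappa, the protease of Igfbp4, changed by 0.64 (adjusted p = 2.96e-06), and Stc1, an inhibitor of Pappa, by 1.23 (adjusted p = 9.09e-08), while Stc2 was not called (0.05, adjusted p = 0.436).

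**Figure D5:**
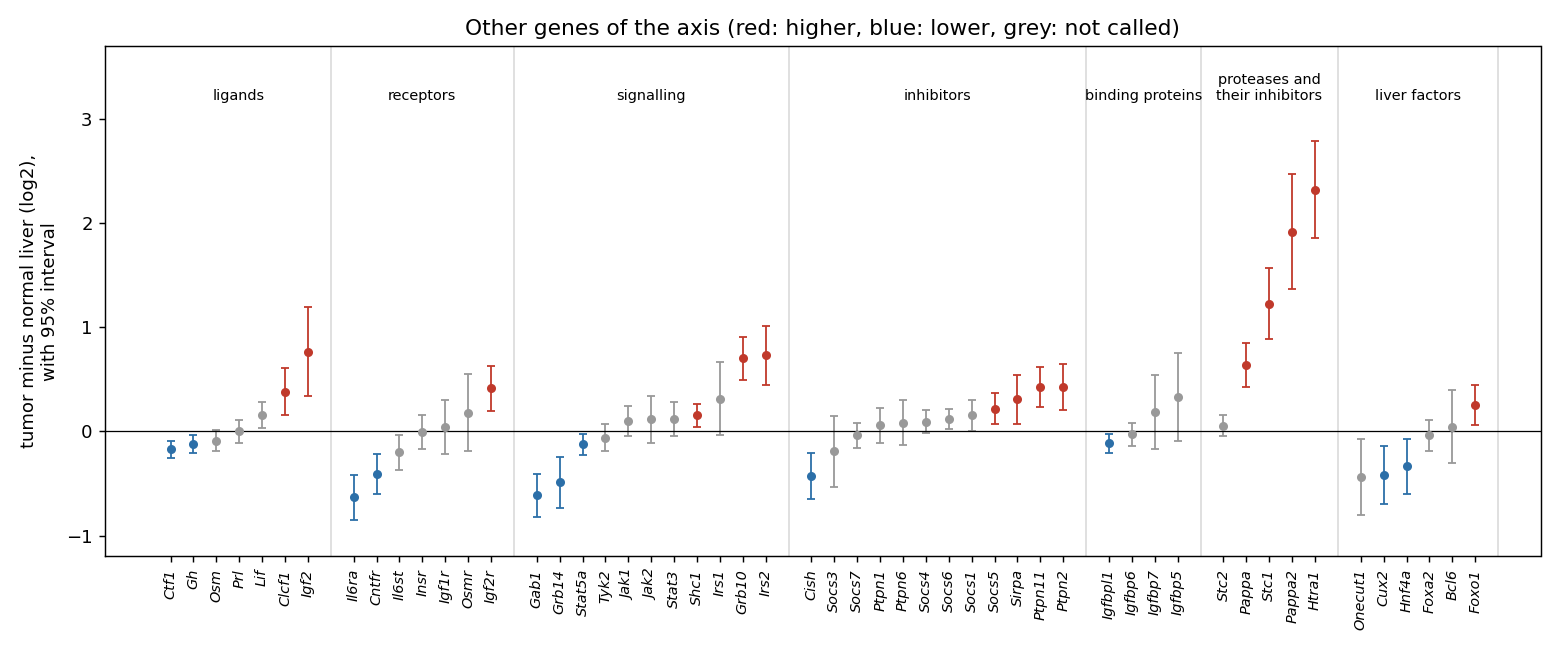
Log2 change, tumor minus normal liver, with its 95% interval (vertical axis) for the 52 measured partner genes, grouped by role along the horizontal axis, in red where higher, blue where lower and grey where not called. Htra1, Pappa2 and Stc1, at 2.32, 1.91 and 1.23, lay above all other partners.

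Among the ligands Igf2, the fetal growth factor of the family, rose by 0.77 (SE 0.21, adjusted p = 0.00388), running from 6.62 through 7.59 to 11.53 in tumors, against 6.82, 7.06 and 9.74 in normal livers. Most tumors stayed inside the normal range, and 2 exceeded it. Clcf1, a ligand of the Lifr and Cntfr complex, rose by 0.38 (adjusted p = 0.00641), and Ctf1, another ligand of Lifr, changed by -0.17 (adjusted p = 0.000870). Gh changed by -0.12 (adjusted p = 0.0292, and 0.120 in the pairs) at medians of 6.39 in tumors and 6.56 in normal livers, both below the median gene.

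Of the receptors that share this signalling, Il6ra fell by 0.63 (adjusted p = 3.57e-06) and Cntfr by 0.41 (adjusted p = 0.000788), while Igf2r, which clears Igf2, rose by 0.41 (adjusted p = 0.00194). The change of Il6st, the partner of Lifr, was -0.20 (adjusted p = 0.0609, and 0.0329 to 0.0960 when each array was left out), that of Igf1r 0.04 (adjusted p = 0.840) and that of Insr -0.01 (adjusted p = 0.967).

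In signalling, Irs2, a docking protein of the insulin and Igf1 receptors, rose by 0.73 (adjusted p = 3.91e-05) and Grb10, an adaptor that restrains these receptors, by 0.70 (adjusted p = 2.29e-07). Shc1 was higher by 0.15 (adjusted p = 0.0255), and by 0.12 in the pairs (adjusted p = 0.315) and 0.06 after quantile normalization (adjusted p = 0.293), where it was not called. Grb14, another such adaptor, fell by 0.49 (adjusted p = 0.00154) and the docking protein Gab1 by 0.61 (adjusted p = 3.43e-06). Jak2, the kinase of Ghr, changed by 0.11 (adjusted p = 0.463) and Stat3 by 0.12 (adjusted p = 0.277). Stat5a, the close relative of Stat5b, changed by -0.12 with an adjusted p of 0.0488, a call that was lost when any of 37 of the 58 arrays was left out (adjusted p up to 0.0807).

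Among the inhibitors Cish, the Stat5 target whose promoter is given above, fell by 0.43 (SE 0.11, adjusted p = 0.00173), running from 6.91 through 7.49 to 8.50 in tumors, against 6.99, 7.94 and 9.32 in normal livers. It was lower in the tumor in 16 of 18 pairs and by 0.41 without tumor 9 (adjusted p = 0.00268), while animals without a pair gave -0.16 (adjusted p = 0.706). The phosphatases Ptpn2 and Ptpn11 rose by 0.43 and 0.42 (adjusted p = 0.00189 and 0.000332), and Socs5 by 0.22 (adjusted p = 0.0179, and 0.135 in the pairs). Sirpa rose by 0.31 (adjusted p = 0.0366, and 0.0545 without tumor 9), and Socs3 was not called (-0.19, adjusted p = 0.409), though it was in the pairs alone (-0.37, adjusted p = 0.00428).

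Of the further binding proteins Igfbpl1 alone was called, at -0.11 (adjusted p = 0.0428, and 0.0514 without tumor 9). Igfbp5 changed by 0.33 (adjusted p = 0.231) and by 0.17 without tumor 9, in which it stood at 12.07 against at most 9.58 in the other tumors. Of the liver transcription factors Hnf4a fell by 0.33 (adjusted p = 0.0464), and by 0.21 without tumor 9 (adjusted p = 0.0291), and was not called in the pairs (adjusted p = 0.115) or when any of 27 arrays was left out (adjusted p up to 0.0679). Cux2, a repressor that growth hormone regulates in liver, fell by 0.42 (adjusted p = 0.0153), and Onecut1 and Bcl6 were not called (-0.44 with an adjusted p of 0.0566, and 0.04 with 0.872). Foxo1 was higher by 0.25 (adjusted p = 0.0371), but the call was lost without tumor 9 (adjusted p = 0.0540), and the change was 0.04 (adjusted p = 0.625) with the mean of its clusters and 0.09 (adjusted p = 0.819) in animals without a pair.

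Markers of cell types were read beside these genes. Over all genes 17.9% were higher and 14.3% lower, or 18.4% and 14.7% without tumor 9, and small counts per list stand against those shares. Of 13 hepatocyte markers 0 rose and 4 fell, with Alb at -0.25 (adjusted p = 0.0683), Ttr at -0.28 (adjusted p = 0.138) Apob at -0.40 (adjusted p = 0.114) and the largest change in Apoa1 at -0.74 (adjusted p = 0.000103). Without tumor 9, 3 of them rose, Cps1 (0.36), Tat (0.41) and Hpd (0.35), and 9 fell, among them Alb (-0.13, adjusted p = 0.000976), Ttr (-0.12, adjusted p = 0.0345) and Apob (-0.18, adjusted p = 0.000638). The mean over the list ran from 7.62 to 12.95 in tumors and from 12.20 to 12.98 in normal livers. The Kupffer cell list had 1 of 10 higher and 5 lower, with means of 7.87 to 10.51 in tumors and 8.53 to 11.07 in normal livers. Sinusoidal endothelium had 0 of 9 higher and 6 lower (means of 7.87 to 10.15 in tumors and 8.90 to 10.19 in normal livers), and other vessels 3 of 6 higher, Esm1 most at 1.86 (means of 8.28 to 10.44 in tumors and 8.17 to 9.98 in normal livers). Vwf, another vessel marker, was not called (0.20, adjusted p = 0.113). Stellate cells and fibroblasts had 4 higher and 4 lower of 11, with Dcn at -0.81, Lrat at -0.76 and Ecm1 at -1.22 called lower. Cholangiocytes had 3 lower of 5, Krt19 among them at -0.19, while Epcam (-0.22) and Sox9 (0.30) were not called. Of T and NK cells 1 of 7, Cd4, was higher (0.48), with Cd3e at -0.03 and not called, and 0 of the B and plasma cell, neutrophil and red cell markers were called, Cd79a (0.05), Ighm (-0.47), S100a8 (-0.09), Retnlg (-0.36) and Epb42 (-0.10) included. Without tumor 9, 2 cholangiocyte, 1 T and NK cell and 1 B and plasma cell marker were lower, and the counts of the Kupffer, endothelial, vessel and stellate lists were as before. All 7 measured proliferation genes rose, Cdk1 most at 1.45. The part of these shifts in the changes of the 10 genes was not tested.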

How the data were processed

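RNA of 29 tumors and 29 normal livers was read on whole-transcript arrays. Per the submitters' processing notes, the authors used Affymetrix Expression Console. Its version and settings, and the build, were not given in the sources used here. Per transcript cluster and array, the authors deposited 1 log2 intensity. Background, detection and scan date were not analysed here, and the number of arrays limits the precision. Replicate numbers only name arrays.

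Groups come from the tissue label and animals from the titles. Of 41345 clusters, the 23521 with 1 gene symbol gave 22180 genes. Tumors were compared with normal liver by limma 3.58.1 with statmod 1.5.0 in R 4.3.3 (duplicateCorrelation with the animal as block, correlation 0.145, and eBayes with a trend), checked on simulated data. Deviations correlated with a median of 0.241 within animals (above 0.1 in 15 of 18 pairs) against -0.016 between animals. Correlations had 100000 permutations, with 1e-05 the smallest p these can give. Where separate extraction is unstated, limma p-values weigh a mean difference against the spread between samples, however that spread arose. Permutation p-values compare a correlation with those of shuffled values.

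The genes, lists and tests were chosen with earlier results of these data known. All 10 genes are named, with called partners, 13 further partners whatever their result, the defining and most changed markers, and the 5 genes most like Igf1 and Igfbp1. Prlr was not analysed here. The values without tumor 9, those centred within the gender label and the relations between both tissues of an animal were added after the data were seen.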

Additional observations from a re-analysis of the deposited data

How the results depend on the processing

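No called change of the 10 genes turned its direction under any of the alternatives run. With the animal as a fixed replicate block in the 18 pairs alone, Igfals changed by -0.39 (adjusted p = 0.0557), genes lower in tumors numbered 1804 instead of 3166, and Igfbp1 reached 0.57 (adjusted p = 0.0170), with 2030 genes lower, in the 17 pairs without tumor 9. The pairing changed no other call of the 10 genes. Without paired animals the changes were -0.52 for Igfals, 0.40 for Igfbp3, -0.67 for Lifr and -0.27 for Socs2, all short of the threshold, with 1316 genes higher and 656 lower and with 5 partners higher and 2 lower. The smaller number of arrays goes with that setting. Array weights gave 0.31 for Igf1, 1.04 for Igfbp1 and 6169 genes lower. Quantile normalization gave -0.18 for Igfbp4, -0.39 for Ghr and -0.27 for Stat5b, all called. Igfbp4 was also called at -0.19 after median centring, at -0.18 among brighter genes and at -0.18 with robust eBayes without a trend. Among brighter genes Igfbp1 was called at 0.73, with 1920 of fewer genes tested called lower. Without the 7 arrays that go against their gender label Socs2 changed by -0.77 and 7 partners were lower. The causes of these shifts were not tested. Leaving out each array in turn gave 0.62 to 0.92 for Igfbp1, -0.20 to -0.13 for Igfbp4, 3711 to 4466 genes higher, 2882 to 4092 genes lower, and 13 to 18 partners higher and 8 to 12 lower. Positive relations among the 45 pairs of genes in tumors numbered 6 in the 18 tumors of pairs, 7 after centring within the gender label and 6 without the 2 farthest tumors of each relation, where 2 were negative. The deposited values state no detection limit, so differences of dim genes such as Gh and Prl are limited by signal over background.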
